A study of Mus musculus with 4 samples.

Results

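Receptors that guide macrophages toward chemokines and other chemoattractants were examined in bone marrow-derived macrophages cultured with necrotic fat. The group comprised 9 genes taken by symbol (Ccr1, Ccr2, Ccrl2, Cx3cr1, Cxcr4, Cmklr1, Fpr1, Fpr2 and C5ar1), and all 9 were found among the 17013 genes with deposited values. The macrophages came from wild-type male C57BL/6 mice, were grown with M-CSF and were seeded on porous inserts. All cultures received artificial necrotic bone fluid (aNBF), and the mouse age and the number of donor mice per culture were not given in the sources used here. For 24 h the cells were in contact with medium made from freeze-thawed abdominal fat, either its middle layer (fat control medium, Con) or its top layer (high-fat-containing medium, Fat). There were 2 RNA sequencing libraries per medium, and nothing states that the replicates were separate mice, so p-values measure only the spread between these libraries.

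Chemoattractant receptors are membrane proteins that couple to inhibitory G proteins and steer a cell up a gradient of ligand. Chemokine receptors bind small secreted chemokines. CCR2 is the receptor that brings monocytes out of the bone marrow and CCR1 acts on monocytes and macrophages in tissue. CXCR4 holds cells in the marrow through CXCL12, and CX3CR1 binds fractalkine. A second group senses injury and microbes directly. C5AR1 binds the complement fragment C5a, and FPR1 and FPR2 bind formylated peptides released by bacteria and by damaged mitochondria. CMKLR1 is the signalling receptor for chemerin, while CCRL2 binds chemerin without signalling and presents it to other cells.

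Values are given in CPM, reads scaled to a common library size. The reads counted over all genes totalled between 33573852 and 40785872 in a library. The receptors were read deeply enough for counting error to be small, since the member with the fewest reads, Cx3cr1, still had between 103 and 164 reads in a library. Fat was compared with Con by limma on log2(CPM + 0.1), two-sided, and a gene was called when its p-value adjusted over all 12470 genes tested was under 0.05. All 9 receptors passed the filter on low values. One direction did not describe the group: C5ar1 was called higher in Fat, Ccrl2 and Fpr2 were called lower, and the other 6 were not called. The 3 calls among 9 receptors stand beside 9.0% of all genes tested, with 3.99% called higher and 5.0% called lower. On the reads recovered from the CPM values, edgeR called the same 3 receptors, beside 9.13% of all genes, and DESeq2 called these and Cmklr1, beside 8.50%. In 5 of the 9 receptors the Fat libraries did not overlap the Con libraries, beside 55.6% of all genes tested. In 1 of these Fat was higher, beside 29.4% of all genes, and in 4 it was lower, beside 26.2%. The median log2 fold change of the receptors was -0.28, and that of all genes tested was 0.01.

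**Figure D1:**
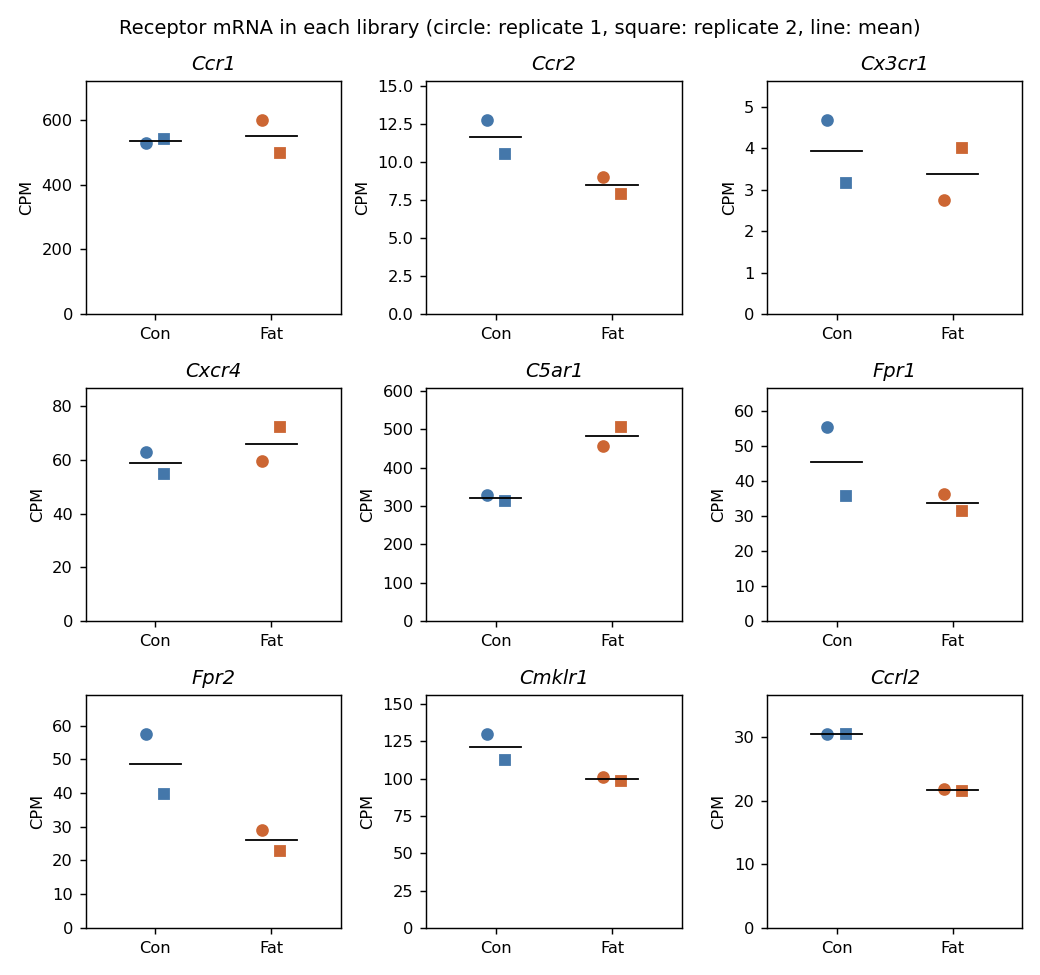
CPM of each receptor (vertical axes, from 0, a scale per gene) in the 2 Con and 2 Fat libraries, with circles for replicate 1, squares for replicate 2 and lines for the means. C5ar1 lies higher in both Fat libraries, Ccrl2, Fpr2, Cmklr1 and Ccr2 lie lower in both, and the other 4 receptors overlap.

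The regions before the transcription starts of the 3 called receptors are shown because these genes moved in opposite directions. Each is the stretch of 250 bases before an annotated start in RefSeq (GRCm38.p6), written along the gene's strand. Promoter records matched all 9 receptors by symbol, and 3 starts are annotated for Ccrl2. Capitals mark matches to any of 6 motifs searched on both strands. The motifs were the PU.1 motif (GAGGAAG), the NF-kB motif (GGGA, any 4 bases, then CC), the interferon response element ISRE (GAAA, any 2 bases, then GAAA), the STAT element GAS (TTCNNNGAA), the AP-1 motif (TGANTCA) and the C/EBP motif (TTGCNNAA). No matches overlapped in the stretches shown.
C5ar1, chr7:16259339-16259588, minus strand: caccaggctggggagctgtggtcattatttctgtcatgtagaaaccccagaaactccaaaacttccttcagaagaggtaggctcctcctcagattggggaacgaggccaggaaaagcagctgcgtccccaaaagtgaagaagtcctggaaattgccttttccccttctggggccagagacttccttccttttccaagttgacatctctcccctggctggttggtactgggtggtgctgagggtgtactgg
Ccrl2, chr9:111057519-111057768, minus strand: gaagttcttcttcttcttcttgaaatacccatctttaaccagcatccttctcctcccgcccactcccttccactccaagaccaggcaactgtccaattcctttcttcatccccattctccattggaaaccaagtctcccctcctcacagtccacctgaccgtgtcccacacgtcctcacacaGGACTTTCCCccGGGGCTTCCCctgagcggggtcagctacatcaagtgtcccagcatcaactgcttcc
Fpr2, chr17:17887574-17887823, plus strand: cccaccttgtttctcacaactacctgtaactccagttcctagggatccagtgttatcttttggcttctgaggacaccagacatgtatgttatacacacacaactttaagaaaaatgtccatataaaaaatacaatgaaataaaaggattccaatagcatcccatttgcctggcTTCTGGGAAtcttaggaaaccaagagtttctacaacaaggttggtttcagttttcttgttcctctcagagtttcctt
The Ccrl2 stretch held the NF-kB letters at 2 places, both read on the other strand, as did 17.6% of all 32851 promoter stretches of that length at 1 place or more. The stretches before the other Ccrl2 starts held no match. Among the other receptors, Ccr1 also had the NF-kB letters. The Fpr2 stretch held the GAS letters at 1 place, which 7.02% of all stretches held, and no other receptor had them. The C5ar1 stretch held no match to these 6 motifs. None of the 9 receptors had the PU.1, ISRE, AP-1 or C/EBP letters, which 10.6%, 2.98%, 6.75% and 9.56% of all stretches held. A match is a description of the letters and not a measured binding site.

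Among the injury-sensing receptors, C5ar1 rose and Fpr2 fell. The paired values below list replicate 1 before replicate 2. C5ar1 measured 328 and 313 CPM in the Con libraries and 457 and 506 CPM in the Fat libraries. Both Fat libraries were higher than both Con libraries, by 50.1% on average. Its log2 fold change was 0.58 (standard error 0.07, 95% interval 0.43 to 0.74, limma adjusted p = 0.00478). When single libraries were dropped it ranged from 0.51 to 0.66. By p-value it ranked 107 of the genes tested. Fpr2 was at 57.7 and 39.7 CPM in the Con libraries and at 29.1 and 22.9 CPM in the Fat libraries. Both Fat libraries lay under both Con libraries, although the Con replicates differed from each other more than the Fat replicates did. Its log2 fold change was -0.89 (standard error 0.18, 95% interval -1.30 to -0.47, limma adjusted p = 0.0243). The call was lost without Fat replicate 2 (log2 fold change -0.71, limma adjusted p = 0.0573) and with the TPM values, which scale for gene length (limma adjusted p = 0.0594). In the GENCODE vM21 transcripts, 42.8% of the 75-base stretches of Fpr2 also occur, with up to 2 mismatches, in other genes, mostly the pseudogene Gm5966 and the neighbouring paralog Fpr3. Neither of these is listed among the values, so reads of Fpr2 may include theirs or may have been lost to them.

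Fpr1, the other formyl peptide receptor, shared no such stretch with another gene. It was at 55.5 and 35.6 CPM in Con and at 36.2 and 31.3 CPM in Fat, so Fat replicate 1 lay just above Con replicate 2. Its log2 fold change of -0.40 (95% interval -0.83 to 0.03) was not called (limma adjusted p = 0.245). Con replicate 1 carried most of this difference, which was -0.077 without that library and -0.72 without Con replicate 2, where it was called (limma adjusted p = 0.00254). Per length, the ratio of Fpr1 to Fpr2 was 0.942 and 0.877 in the Con libraries and 1.22 and 1.34 in the Fat libraries. Fpr2 thus exceeded Fpr1 in both Con libraries and Fpr1 exceeded Fpr2 in both Fat libraries. The log2 ratio was higher in Fat by 0.49 (exact permutation p = 0.333, two-sided, n = 2 against 2, which is the smallest p this design allows).

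The chemerin receptors were both lower on average in Fat, and Ccrl2 alone was called. Ccrl2 had the tightest replicates of the group, at 30.5 and 30.5 CPM in Con and at 21.8 and 21.6 CPM in Fat. They varied by 0.139% of the mean in Con and by 0.634% in Fat. This was less than its counting error of 2.95% to 3.51% in a library, so their closeness is not a measure of precision. Both Fat libraries lay well under both Con libraries, a change of -28.9%. The log2 fold change was -0.49 (standard error 0.07, 95% interval -0.64 to -0.34, limma adjusted p = 0.00711). When single libraries were dropped it ranged from -0.50 to -0.48, a narrow range that follows from these close replicates. Cmklr1 was at 130.4 and 113 CPM in Con and at 101 and 98.6 CPM in Fat. Its Fat libraries lay under its Con libraries, but the log2 fold change of -0.28 (95% interval -0.45 to -0.10) was not called (limma adjusted p = 0.0633). It was called by DESeq2 on the recovered reads (adjusted p = 0.0272) and by limma without Con replicate 2 (adjusted p = 0.00829). Per length, Cmklr1 exceeded Ccrl2 by 3.17-fold and 2.74-fold in the Con libraries and by 3.45-fold and 3.39-fold in the Fat libraries. The log2 ratio was higher in Fat by 0.21 (exact permutation p = 0.333, two-sided, n = 2 against 2, the smallest p possible). It was 0.11 without Con replicate 2 and 0.32 without Con replicate 1. Rarres2, which encodes chemerin, had 2 and 7 reads in Con and 12 and 7 reads in Fat, and fell under the filter.

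**Figure D2:**
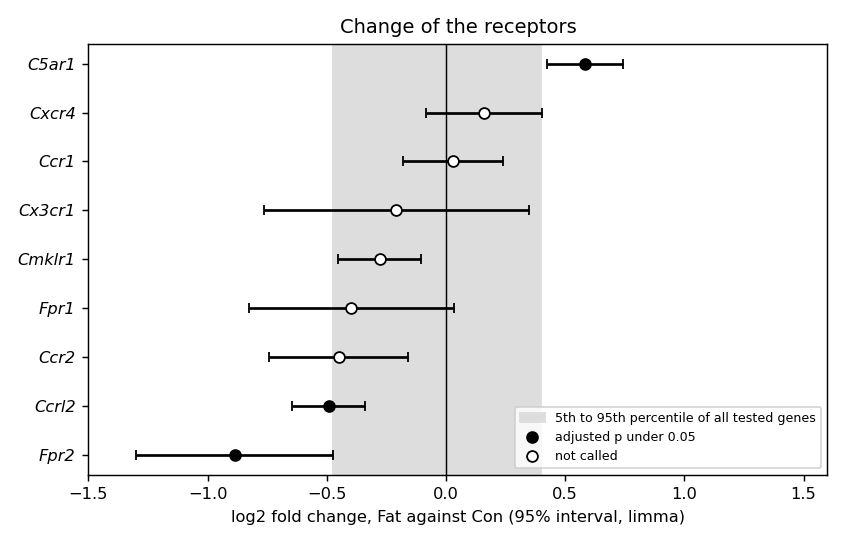
Log2 fold change of each receptor in Fat against Con (horizontal axis) with its 95% limma interval, filled where called. Grey spans the 5th to 95th percentile of all genes tested, -0.48 to 0.40, and C5ar1, Ccrl2 and Fpr2 have values outside it.

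The 4 chemokine receptors Ccr1, Ccr2, Cxcr4 and Cx3cr1 gave 0 calls by limma, edgeR or DESeq2, with 1 of them, Ccr2, at an unadjusted p under 0.05 by each tool. Ccr1 was the most abundant of them, at 528 and 541 CPM in Con and at 600 and 498 CPM in Fat. The Fat replicates lay on either side of the Con replicates, with a log2 fold change of 0.03 (95% interval -0.18 to 0.24, limma adjusted p = 0.877). Without Fat replicate 1 this value was -0.10. Ccr2 was at 12.8 and 10.5 CPM in Con and at 9.03 and 7.93 CPM in Fat. Its Fat libraries lay under its Con libraries, and the log2 fold change was -0.45 (95% interval -0.74 to -0.16, limma adjusted p = 0.0704). It was called without Con replicate 2 (log2 fold change -0.59, limma adjusted p = 0.0292). Per length, Ccr1 exceeded Ccr2 by 52.5-fold and 65.2-fold in the Con libraries and by 84.2-fold and 79.6-fold in the Fat libraries, a difference in log2 ratio of 0.48 (exact permutation p = 0.333, two-sided, n = 2 against 2, the smallest p possible).

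Cxcr4 was at 63.0 and 54.9 CPM in Con and at 59.6 and 72.4 CPM in Fat. The groups overlapped, and the log2 fold change was 0.16 (95% interval -0.08 to 0.40, limma adjusted p = 0.407). It was 0.019 without Fat replicate 2, 0.060 without Con replicate 2, 0.26 without Con replicate 1 and 0.30 without Fat replicate 1. Cx3cr1 was the least abundant receptor, at 4.69 and 3.17 CPM in Con and at 2.76 and 4.0 CPM in Fat. Its replicates varied by 27.3% of the mean in Con and by 26.0% in Fat, against a counting error of at most 9.85% in a library, and the groups overlapped. The log2 fold change was -0.21 (95% interval -0.76 to 0.35, limma adjusted p = 0.647), an interval that reaches to both sides of 0. Cx3cr1 overlaps the gene Gm33858 on the other strand, and whether strand was used in counting is not given in the sources used here. It was 0.066 without Con replicate 1 and 0.051 without Fat replicate 1.

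The order of the levels was compared per length, in TPM. In Con it was Ccr1 (409 ± 1.23 TPM, SD, n = 2), C5ar1 (271 ± 12.7), Cmklr1 (92.7 ± 10.7), Fpr2 (81.6 ± 22.4), Fpr1 (74.7 ± 24.1), Cxcr4 (70.5 ± 7.79), Ccrl2 (31.3 ± 0.389), Ccr2 (7.04 ± 1.05) and Cx3cr1 (2.27 ± 0.650). The 4 receptors from Cmklr1 to Cxcr4 had overlapping replicates, each with the next. In Fat, C5ar1 (415 ± 29.8 TPM) reached the level of Ccr1 (429 ± 56.7 TPM), and these overlapped, whereas in Con they did not. Cxcr4 (80.6 ± 11 TPM) and Cmklr1 (77.9 ± 1.58 TPM) followed and also overlapped. Then came Fpr1 (56.6 ± 5.84 TPM), Fpr2 (44.5 ± 7.55 TPM), Ccrl2 (22.8 ± 0.159 TPM), Ccr2 (5.23 ± 0.484 TPM) and Cx3cr1 (1.99 ± 0.517 TPM), each under the one before in both libraries. The ratio of C5ar1 to Ccr1 was 0.685 and 0.638 in the Con libraries and 0.839 and 1.12 in the Fat libraries, a pair chosen after its values were seen and therefore not tested.

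The 9 receptors summed to 1095 and 984 TPM in Con and to 1156 and 1112 TPM in Fat. C5ar1 made up 25.5% and 26.6% of this sum in Con and 34.1% and 39.2% in Fat. The share of Fpr2 was 8.89% and 6.68% in Con and 4.31% and 3.52% in Fat. That of Ccr1 was 37.3% and 41.7% in Con and 40.6% and 35.0% in Fat. These shares restate the levels above and were not tested.

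**Figure D3:**
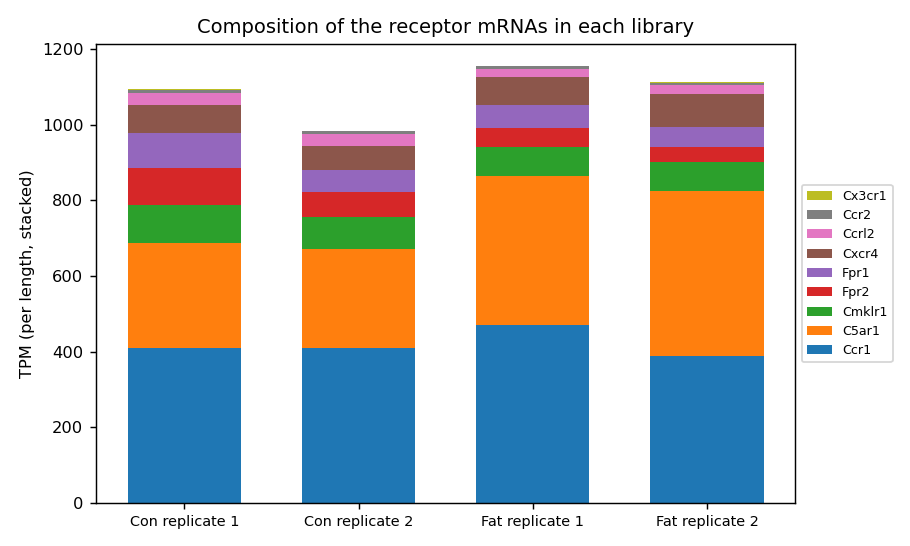
TPM of the 9 receptors stacked in each library (vertical axis, from 0). C5ar1 widens from 280 and 262 TPM in Con to 394 and 436 TPM in Fat, while Ccr1 stays between 389 and 470 TPM in all 4 libraries.

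Several ligands of these receptors fell. Of 15 listed ligands, 11 passed the filter, 6 were called lower, beside 5.0% of all genes tested, 0 were called higher, beside 3.99%, and 5 were not called (also 0 higher by edgeR and DESeq2 at an adjusted p under 0.05, and 0 higher by limma at an unadjusted p under 0.05). Their median log2 fold change was -0.65. For Ccr1, whose own value was 0.03, Ccl5 (log2 fold change -1.80), Ccl3 (-0.99), Ccl7 (-0.69) and Ccl6 (-0.65) fell, with limma adjusted p-values of 0.00599, 0.00888, 0.0111 and 0.0336. Ccl9, a further CCR1 ligand in mice, was at 1841 and 1784 CPM in Con and at 2204 and 1822 CPM in Fat (log2 fold change 0.15, limma adjusted p = 0.446). The call for Ccl6 was lost without Con replicate 1 (limma adjusted p = 0.0563) or Fat replicate 2 (limma adjusted p = 0.145). Ccl2, the main ligand of CCR2, was at 93.4 and 75.5 CPM in Con and at 39.4 and 20.6 CPM in Fat (log2 fold change -1.56, limma adjusted p = 0.0145). Ccl12, which also acts on CCR2, had 11 and 10 reads in Con and 5 and 0 reads in Fat.

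For the formyl peptide receptors, Anxa1, which encodes annexin A1, was at 2237 and 2680 CPM in Con and at 2493 and 2453 CPM in Fat, with overlapping groups (log2 fold change 0.01, 95% interval -0.23 to 0.26). Saa3, a serum amyloid A protein that can act on FPR2, fell from 11.7 and 8.66 CPM to 3.46 and 2.56 CPM (log2 fold change -1.72, limma adjusted p = 0.0044). Camp, the gene of the cathelicidin peptide, was at 10.8 and 8.64 CPM in Con and at 7.31 and 7.02 CPM in Fat (log2 fold change -0.42, limma adjusted p = 0.0888). The fractalkine gene Cx3cl1 had a log2 fold change of 0.08 (limma adjusted p = 0.793) and Cxcl12 one of -0.36 (limma adjusted p = 0.135). Hc, which encodes complement C5, had 0 reads in 3 libraries and 1 read in Fat replicate 1, so transcripts of the C5AR1 ligand were not detectable in these cells at this depth. Ccl8 was under the filter, at 0.413 and 0.453 CPM in Con and 0.295 and 0.268 CPM in Fat.

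**Figure D4:**
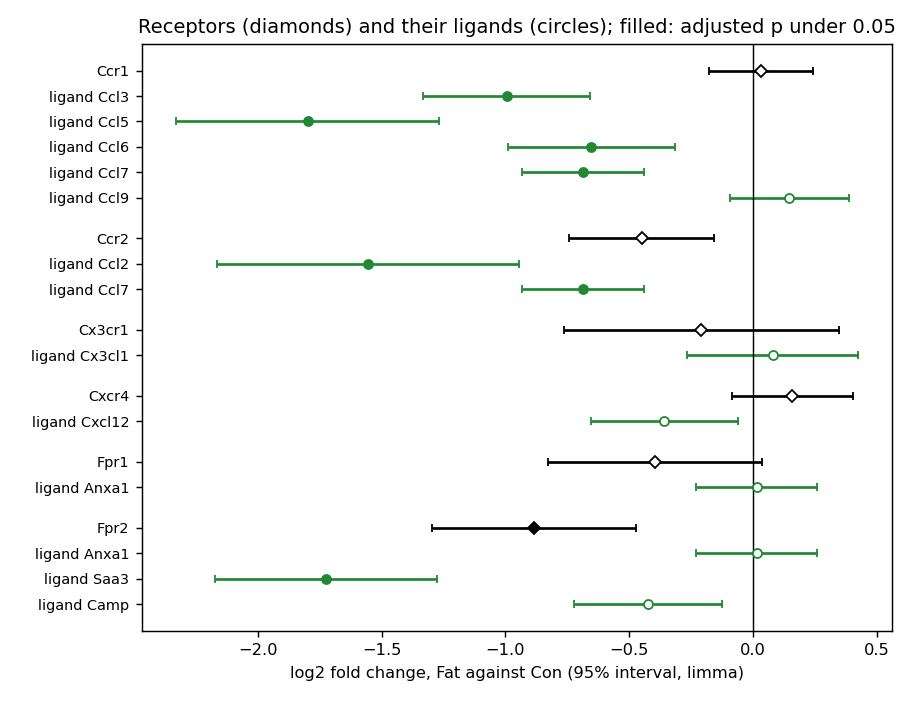
Log2 fold changes in Fat against Con (horizontal axis, with 95% limma intervals) of 6 receptors (diamonds) and of their ligands that passed the filter (circles), filled where called. Ligands of Ccr1 and Ccr2 reach down to -1.80, while Ccr1 lies at 0.03 and Ccr2 at -0.45.

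Other receptors for chemoattractants were compared to place these 9. Of 39 listed, 31 were found, 19 passed the filter, 3 were called higher, beside 3.99% of all genes tested, and 1 was called lower, beside 5.0%, with a median log2 fold change of -0.06. C5ar2, the second C5a receptor and the neighbour of C5ar1 on the chromosome in RefSeq's GRCm38.p6 annotation, rose from 8.55 and 7.78 CPM to 11.8 and 16.0 CPM (log2 fold change 0.75 with a standard error of 0.15, limma adjusted p = 0.0236). Both C5a receptors were therefore higher in both Fat libraries, although the call for C5ar2 was lost without Fat replicate 2 (limma adjusted p = 0.065). Gpr183, a receptor for oxysterols, rose from 2.86 and 3.60 CPM to 5.55 and 7.39 CPM (log2 fold change 0.97, limma adjusted p = 0.0201). The sphingosine 1-phosphate receptor S1pr3 had a log2 fold change of 0.63 (limma adjusted p = 0.0304). P2ry12, a receptor for ADP, fell from 2.30 and 1.65 CPM to 0.857 and 0.659 CPM (log2 fold change -1.27, limma adjusted p = 0.0246). The calls for Gpr183, S1pr3 and P2ry12 were each lost without Con replicate 1 (limma adjusted p = 0.0501, 0.0975 and 0.121) and without Fat replicate 2 (limma adjusted p = 0.072, 0.136 and 0.0758). S1pr3 and P2ry12 overlap Gm32834 and Med12l on the other strand, so their values are uncertain in the same way as that of Cx3cr1. C5ar2 overlaps Gm26473 on the same strand, and 4.35% of its 75-base stretches also occur in other genes. The part of such reads in the C5ar2 values was not tested.

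Genes next to the receptors were examined as well. In RefSeq's order Xcr1 and Ccr1l1 lie on either side of Ccr1 on chromosome 9, and Ccr3 lies between Ccr1l1 and Ccr2. Ccr3, a receptor of eosinophils, had a log2 fold change of 0.10 (limma adjusted p = 0.587). Xcr1 and Ccr1l1 were under the filter. Ccrl2 and Cx3cr1 lie elsewhere on chromosome 9, and Ltf, the neighbour of Ccrl2, had a log2 fold change of -0.03 (limma adjusted p = 0.883). Fpr1 and Fpr2 are next to each other on chromosome 17. The neighbours were chosen by position after the values were known.

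Downstream of the receptors, 46 listed genes of G protein signalling, receptor desensitisation and cell movement all passed the filter, and 2 were called higher, 2 were called lower and 42 were not called, with a median log2 fold change of -0.00193. This share lay close to the 9.0% of all genes tested. Pik3r5, the regulatory subunit that links phosphoinositide 3-kinase gamma to G proteins, rose from 181 and 167 CPM to 249 and 242 CPM (log2 fold change 0.50 with a standard error of 0.06, limma adjusted p = 0.00514). Rgs1, an inhibitor of chemokine receptor signalling, was at 202 and 239.9 CPM in Con and at 288 and 285 CPM in Fat (log2 fold change 0.38, limma adjusted p = 0.0321). Rgs14 (log2 fold change -0.37, limma adjusted p = 0.0236) and the Src-family kinase gene Fgr (-0.41, limma adjusted p = 0.0292) fell. Pik3r5 stayed called with each library left out. The calls for Rgs1, Rgs14 and Fgr were lost without Con replicate 1 (limma adjusted p = 0.0598, 0.0966 and 0.114) and without Fat replicate 2 (limma adjusted p = 0.0785, 0.0956 and 0.0522), and those for Rgs1 and Fgr also without Fat replicate 1 (limma adjusted p = 0.0639 and 0.0825). The abundant G protein gene Gnai2 had a log2 fold change of -0.01 (limma adjusted p = 0.922), and it was named after its value was seen.

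The profile of each called receptor over the 4 libraries was matched with all genes tested, by the root-mean-square difference of centred log2(CPM + 0.1). The genes most like C5ar1 were Sh2b2 (0.0193) and Smox (0.0274), the gene most like Ccrl2 was Tnfrsf18 (0.00641), and those most like Fpr2 were Tnfrsf9 (0.0479) and Cd1d1 (0.0515). With 4 libraries this likeness is a description of levels.

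Markers of cell types were examined beside these results, since fewer cells of a type and less RNA per cell cannot be told apart in bulk RNA. All 10 macrophage markers were detected, among them Csf1r at 1852 and 1638 CPM in Con and at 1539 and 1477 CPM in Fat, and 2 of the 10 (Fcgr1 and Mertk) were called lower. Of 6 monocyte markers, 3 were called lower, Ly6c2 and Spn among them, and the log2 fold changes of all 6 were under 0. The monocyte markers summed to between 99.5 and 116 CPM in Con and between 79.5 and 84.8 CPM in Fat. Chil3 was the largest part, at 53.2 and 45.6 CPM in Con and at 41.5 and 35.7 CPM in Fat. It was not called (limma adjusted p = 0.0709). Both Fat sums were under both Con sums, as were those of the macrophage, neutrophil, dendritic cell and lymphocyte markers. The levels of Ccr2, Fpr2, Ccrl2 and Cmklr1 also lay lower in both Fat libraries, as did 26.2% of all genes tested. The macrophage markers summed to between 39230 and 40369 CPM in Con and between 31785 and 33309 CPM in Fat. Lyz2 made up most of each sum, at 28720.5 and 26818.8 CPM in Con and at 21516.1 and 20346.7 CPM in Fat. It was not called (limma adjusted p = 0.209). Of the 10 macrophage markers, 7 had log2 fold changes under 0 and 3 above 0, so the sum does not describe them as a set. The 9 neutrophil markers listed had summed levels between 788 and 868 CPM in Con and between 695 and 729 CPM in Fat, and 1 of them, Mmp8, was called lower. The part of these markers in the receptor results was not tested. Dendritic cell markers summed to at most 17.0 CPM and lymphocyte markers to at most 34.4 CPM in a library. Of the 3 dendritic cell and 8 lymphocyte markers that passed the filter, limma and edgeR called 0 (1 and 2 at an unadjusted p under 0.05), and DESeq2 called 1, Clec9a, which was lower. The 8 fibroblast and endothelial markers summed to between 259 and 346 CPM over the 4 libraries, with 1 (Dcn) called lower. Adipoq and Lep, which mark adipocytes, had 0 reads in Con. In Fat replicates 1 and 2, Adipoq had 28 and 14 reads, and the 7 adipocyte markers summed to 4.07 and 2.54 CPM, against at most 0.160 CPM in Con. Cidec, a lipid droplet protein gene and the 1 adipocyte marker that passed the filter, was called higher. The part of adipocyte RNA in the receptor results was not tested.

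The direction of each called receptor was the same under every alternative run. Without limma's mean-variance trend, however, the calls of C5ar1, Ccrl2 and Fpr2 and of all 22 other listed genes called were lost.

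**Figure D5:**
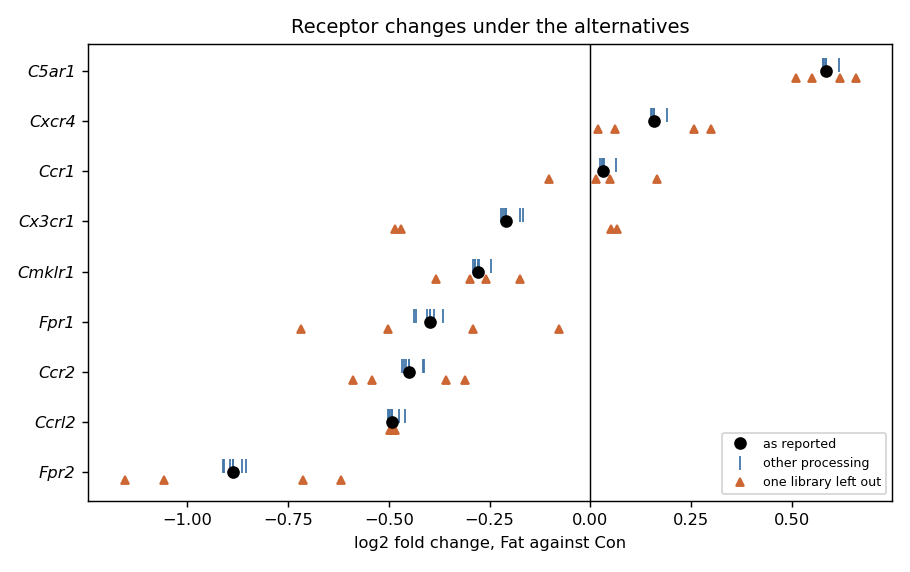
Log2 fold change in Fat against Con (horizontal axis) of each receptor as reported (black), under other processing (blue ticks) and with 1 library left out (orange triangles). C5ar1 stays between 0.51 and 0.66, Ccrl2 between -0.50 and -0.46 and Fpr2 between -1.15 and -0.62, while values of Ccr1 and Cx3cr1 fall on both sides of 0.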

How the data were processed

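RNA from macrophages in Con and Fat (n = 2 each) was made into TruSeq stranded mRNA libraries and sequenced as single reads of 75 bases. The authors deposited CPM values (reads scaled by library size, with a further factor between 0.990 and 1.01 per library) and TPM values (also scaled for gene length). The processing notes name the build GRCm39. The aligner, counter and annotation are not given in the sources used here. The paper's text names edgeR for its comparison.

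Dividing the CPM values by the worth of 1 read returned whole reads (100% of values, tolerance 1e-06). The totals of these reads over all genes were between 33573852 and 40785872. They are sums over genes and not numbers of reads sequenced, and some exceed the read depth per sample that the paper gives. limma 3.58.1 (R 4.3.3) was fitted to log2(CPM + 0.1). The fit had a mean-variance trend, Benjamini-Hochberg adjustment and a filter of at least 0.5 CPM in at least 2 libraries. Fold changes are on that scale. Ratios of receptors were tested with exact permutation tests. The counting errors given treat reads as independent molecules, which they are not. The 95% intervals are limma intervals of log2 fold changes and rest on the spread between libraries. Shared sequence was sought with BWA 0.7.19 at steps of 5 bases, allowing 2 mismatches. edgeR 4.0.16 and DESeq2 1.42.0 were run on the recovered reads as alternatives, together with another pseudocount, no filter, a stricter filter, TPM values, median-ratio scaling, no trend, a replicate block and each library left out.

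The receptors and gene lists were chosen with earlier results of these data known. Named genes were the receptors, their ligands, called genes of the other lists, shared-sequence genes, the 2 genes most like each of the 3 receptors with the smallest p-values, and cell markers. Others are said to have been chosen afterwards. A few genes that this rule names are not reported here. Symbols older than those listed were matched through RefSeq (GRCm38.p6), which supplied Adgre1 as Emr1. No receptor coordinates beyond the promoter records are given, as builds differ.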

Additional observations from a re-analysis of the deposited data

How the results depend on the processing

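The 3 called receptors stayed called, and the other 6 uncalled, under median-ratio scaling, without a filter, with 1 CPM as pseudocount, with genes averaging 5 CPM or more (which left Cx3cr1 untested) and under edgeR's quasi-likelihood test. With the TPM values Fpr2 was at -0.86 and not called. Without the mean-variance trend, limma called 31 genes and 0 receptors, with C5ar1 at 0.58 (adjusted p = 0.0831), Ccrl2 at -0.49 (0.0831) and Fpr2 at -0.89 (0.149). Under that setting 5 receptors had an unadjusted p-value under 0.05. DESeq2 called 4 receptors, adding Cmklr1 at -0.29. The labels number the replicates without saying what a number shares, and deviations of libraries with one number correlated at 0.20 over all genes tested and at 0.339 over the 9760 genes averaging 5 CPM or more. A fit with this number as replicate block called 2520 genes and 6 receptors, adding Ccr2 (-0.45, adjusted p = 0.00154), Cmklr1 (-0.28, 0.000502) and Fpr1 (-0.40, 0.000172). With each library left out in turn, 529 (without Fat replicate 2) to 1131 genes were called, with 666 without Con replicate 1. Between 2 (without Fat replicate 2) and 6 receptors (without Con replicate 2) were called. The lone library of a group is then assumed to vary like the others. Log2 fold changes lay between -0.10 and 0.17 for Ccr1, -0.59 and -0.31 for Ccr2, -0.48 and 0.066 for Cx3cr1 (above 0 at 0.066 without Con replicate 1 and 0.051 without Fat replicate 1), 0.019 and 0.30 for Cxcr4, -0.38 and -0.18 for Cmklr1, -0.72 and -0.077 for Fpr1, and -1.15 and -0.62 for Fpr2. Among the 22 other listed genes called, 12 lost their call without at least 1 library and 0 changed sign. All 22 lost it without the mean-variance trend, 6 with the TPM values, 2 (Ccl6 and Dcn) without a filter and 1 (Dcn) by DESeq2, which gave Cidec no adjusted p. There were 5 that did not reach a mean of 5 CPM and were untested there. The ratios of Ccr1 to Ccr2, Fpr1 to Fpr2 and Cmklr1 to Ccrl2 kept their direction with a pseudocount of 1 TPM and with each library left out. The ratio of C5ar1 to Ccr1 was not recomputed. For Cx3cr1, with at most 164 reads in a library, the 95% limma interval ran from -0.76 to 0.35. Changes of either sign within that interval are compatible with these libraries.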
